A study of Culex quinquefasciatus with 4 samples.

Results

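Whole larvae of Culex quinquefasciatus, the southern house mosquito, were compared between a pool kept for 24 h in acetone and an untreated pool taken at 0 h, both in the fourth larval instar. Genes were kept when they were above 0 in all 4 libraries of the study, reached 5 FPKM or more in the acetone or the untreated library, and had an identifier number outside the range from 20000 up to 40000. FPKM is the number of sequenced fragments scaled to transcript length and to library size. These limits kept 8044 of the 13345 genes. The kept gene nearest to the level limit reached 5.0005 FPKM and the nearest gene left out 4.9997 FPKM.

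The study had 4 groups of fourth-instar larvae sampled as whole bodies: untreated at 0 h, and acetone, permethrin at the LC50 and permethrin at the LC70, each of these at 24 h. The LC50 and LC70 are the doses that kill 50% and 70% of the larvae, and permethrin is a pyrethroid insecticide. Each group was 1 library from a pool of 200 larvae, fed on yeast under alternating light and dark. The labels give neither the strain, the amount of acetone nor the age within the instar.

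The fourth instar is the last larval stage of a mosquito. During it the larva feeds and stores reserves, and a fall of juvenile hormone followed by pulses of the steroid ecdysone then switches the body to the pupal programme, with a new cuticle and a remodelled gut. Acetone is a solvent in which water-insoluble insecticides such as permethrin are commonly dosed, so a solvent group is the usual control for the vehicle. The acetone and untreated larvae differed in both age and solvent, and no untreated library at 24 h was analysed here, so time and solvent cannot be told apart. Differences between pools cannot be told apart from either of them. In whole larvae, fewer cells of a type and less RNA per cell cannot be told apart either.

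With 1 library per group there was no replicate error and no test, and each count below says how many genes passed a set ratio of 1 library to another. Ratios are differences of log2(FPKM + 1), which understate the change of low genes. The deposited table pairs no identifier with a gene name and 0 of the 13345 identifiers matched the reference table, so no gene is given a function here and the whole-body label could not be set against marker genes. Read totals are not given. Among 3257 genes under 3 FPKM in both libraries, the most frequent acetone to untreated ratio was 0.983, held by 80 genes in a bin where the median bin held 18. If that ratio marks genes with equal fragment numbers, which was not tested, the value of 1 fragment was nearly the same in both. The summed FPKM of all genes was 949776 in untreated larvae and 767578 in acetone, and the kept genes made up 92.8% and 93.5% of it.

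At 24 h in acetone most kept genes stood close to their untreated level, and more genes were lower than higher. Of the 8044 genes, 6450 (80.2%) were within 1.5-fold of untreated. At least 2-fold higher in acetone were 182 genes, or 2.26%. At least 2-fold lower were 332 genes, or 4.13%. At least 4-fold higher were 20 genes (0.249%) and at least 4-fold lower 49 genes (0.609%). The log2 ratio had a median of -0.10, quartiles of -0.37 and 0.15, and an SD across genes of 0.53. The median thus sat slightly below equality, and 60.8% of the genes had a lower value in acetone.

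**Figure D1:**
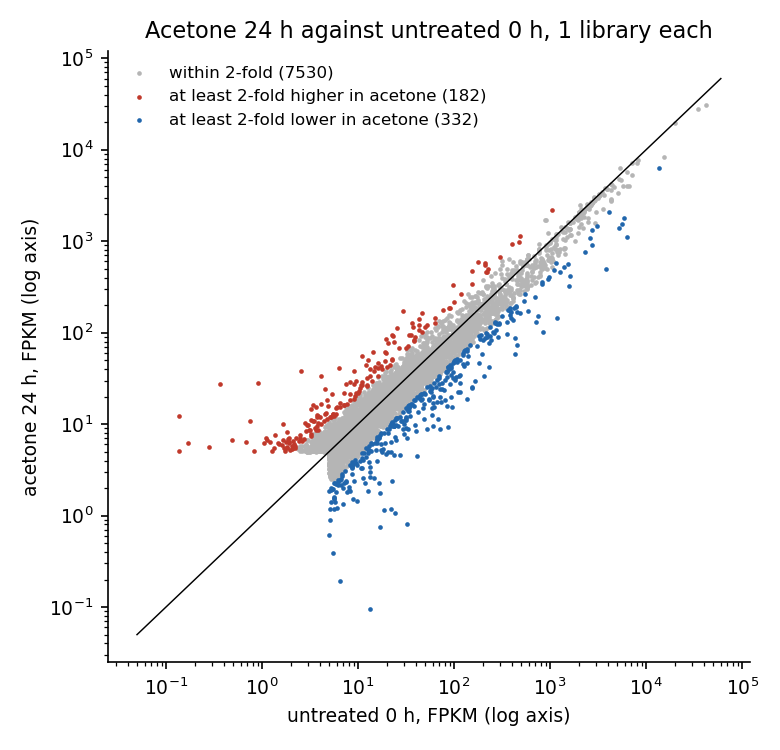
Level of each of the 8044 kept genes in acetone at 24 h (y axis) against untreated larvae at 0 h (x axis), in FPKM on log axes, with 1 point per gene and the line of equal values. The 182 red genes lie above the line and the 332 blue genes below it, and the square corner at the lower left is the limit of 5 FPKM.

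The excess of lower genes depended on how the libraries were scaled. As deposited, 35.4% of the genes past 2-fold were higher in acetone. With median-ratio scaling, in which each library is divided by the median over genes of its ratio to the 4-library geometric mean, 212 genes were higher and 305 lower. With the 50 most abundant genes dropped and the remainder brought to equal totals, the median log2 ratio was 0.21 in place of -0.10, and 355 genes were higher and 166 lower, a share of 68.1% higher. The direction of the single genes named below was the same under both scalings.

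The genes lower in acetone came from higher untreated levels than the genes higher in acetone. The 332 lower genes stood at a median of 45.1 FPKM at 0 h and 15.8 FPKM after acetone, and 20 of them were at 1000 FPKM or more at 0 h. The 182 higher genes stood at a median of 6.38 FPKM at 0 h and 19.6 FPKM after acetone, and 2 of them reached 1000 FPKM in acetone. Choosing genes by the ratio favours this order. In the libraries not used for the choice the medians stood closer together and their order was reversed. The lower genes had medians of 19.9 FPKM under the LC50 and 22.1 under the LC70, the higher genes 22.3 and 27.2, and all kept genes 17.1 and 17.7. Of the FPKM sum, the lower genes made up 10.7% at 0 h, 4.63% after acetone, 3.69% under the LC50 and 4.19% under the LC70. The higher genes made up 0.700%, 2.15%, 2.88% and 3.57% in the same order.

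The most abundant lower gene stood at 13640 FPKM at 0 h, 6272 after acetone, 1671 under the LC50 and 1205 under the LC70. It was highest untreated, lower in acetone and lower again at both doses. The most abundant higher gene stood at 1051 FPKM at 0 h, 2170 after acetone, 5174 under the LC50 and 4405 under the LC70. This gene was lowest untreated, higher in acetone and higher again at both doses, with its highest value under the LC50.

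To see the effect of level without using the libraries compared, genes were grouped by their mean in the LC50 and LC70 libraries. In the class from 10 to 20 FPKM, which held 2305 genes, the median log2 ratio of acetone to untreated was -0.05, with 1.26% of genes higher and 2.43% lower by 2-fold. Among the 437 genes of 100 to 200 FPKM it was -0.29, with 3.66% higher and 7.55% lower. Among the 121 genes of 500 to 1000 FPKM it was -0.35, with 6.61% higher and 8.26% lower. The share of genes past 2-fold was thus larger in these classes of higher level, in both directions. The 139 genes at 1000 FPKM or more had a median nearer to equality, at -0.07, with 5 genes (3.60%) higher and 7 (5.04%) lower. These shares were above those at 10 to 20 FPKM and below those at 500 to 1000 FPKM. The 222 genes under 5 FPKM are not read in the same way, because each had to reach 5 FPKM in acetone or untreated larvae to be kept.

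**Figure D2:**
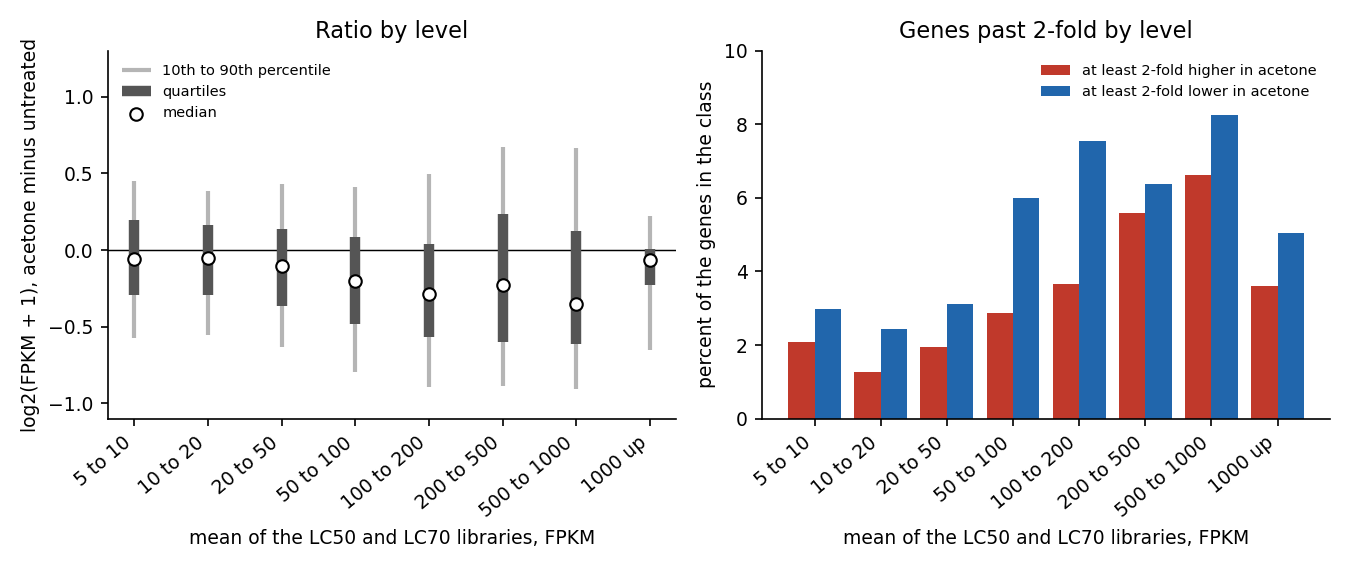
Left, log2(FPKM + 1) of acetone minus untreated in classes of the mean FPKM of the permethrin libraries, with the median (circle), quartiles (dark bar) and 10th to 90th percentile (light bar) over genes. Right, percent of the genes in each class at least 2-fold higher (red) or lower (blue) in acetone; the lower share is the larger in every class shown, from 2.43% at 10 to 20 FPKM to 8.26% at 500 to 1000 FPKM, as deposited and without rescaling.

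A small number of genes were nearly absent in 1 of the compared libraries and at a clear level in the other. Of the kept genes, 10 were under 1 FPKM in untreated larvae and at 5 FPKM or more in acetone, and 7 were the other way. The 10 genes had medians of 0.429 FPKM at 0 h, 6.57 after acetone, 2.44 under the LC50 and 12.5 under the LC70. At the LC70 8 of them were at 5 FPKM or more, and at the LC50 1 was. The 7 genes had medians of 6.47 FPKM at 0 h, 0.619 after acetone, 1.496 under the LC50 and 1.295 under the LC70, and at 5 FPKM or more were 1 of them at the LC50 and 0 at the LC70.

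By the rule for named genes, CPIJ013538 and CPIJ008878 had the largest ratios in the lower direction. CPIJ013538 stood at 32.4 FPKM at 0 h, 0.817 after acetone, 0.339 under the LC50 and 0.667 under the LC70. CPIJ008878 stood at 13.3 FPKM at 0 h, 0.0952 after acetone, 0.922 under the LC50 and 0.602 under the LC70. Both were low in every library of 24 h and high in untreated larvae alone. The log2 ratio of acetone to untreated was -4.20 for CPIJ013538 and -3.70 for CPIJ008878. These also led the ranking by the smallest ratio over the 3 libraries of 24 h, which by construction picks genes highest in untreated larvae.

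In the higher direction the largest ratios did not hold evenly over the libraries of 24 h. CPIJ006046 stood at 0.369 FPKM at 0 h, 27.5 after acetone, 1.76 under the LC50 and 95.8 under the LC70. CPIJ001874 stood at 0.901 FPKM at 0 h, 28.4 after acetone, 2.72 under the LC50 and 56.0 under the LC70. In both, acetone and the LC70 were high while untreated and the LC50 were low. The log2 ratio of acetone to untreated was 4.38 for CPIJ006046 and 3.95 for CPIJ001874, against LC50 ratios of 1.01 and 0.97.

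The higher genes with the largest ratio shared by all libraries of 24 h were CPIJ019875 and CPIJ801536. CPIJ019875 stood at 2.55 FPKM at 0 h, 37.9 after acetone, 26.3 under the LC50 and 125 under the LC70. CPIJ801536 stood at 0.753 FPKM at 0 h, 10.7 after acetone, 24.5 under the LC50 and 18.7 under the LC70. Untreated was the lowest library for both, as their choice by this ratio requires. Their log2 ratios of acetone to untreated were 3.46 and 2.74.

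**Figure D3:**
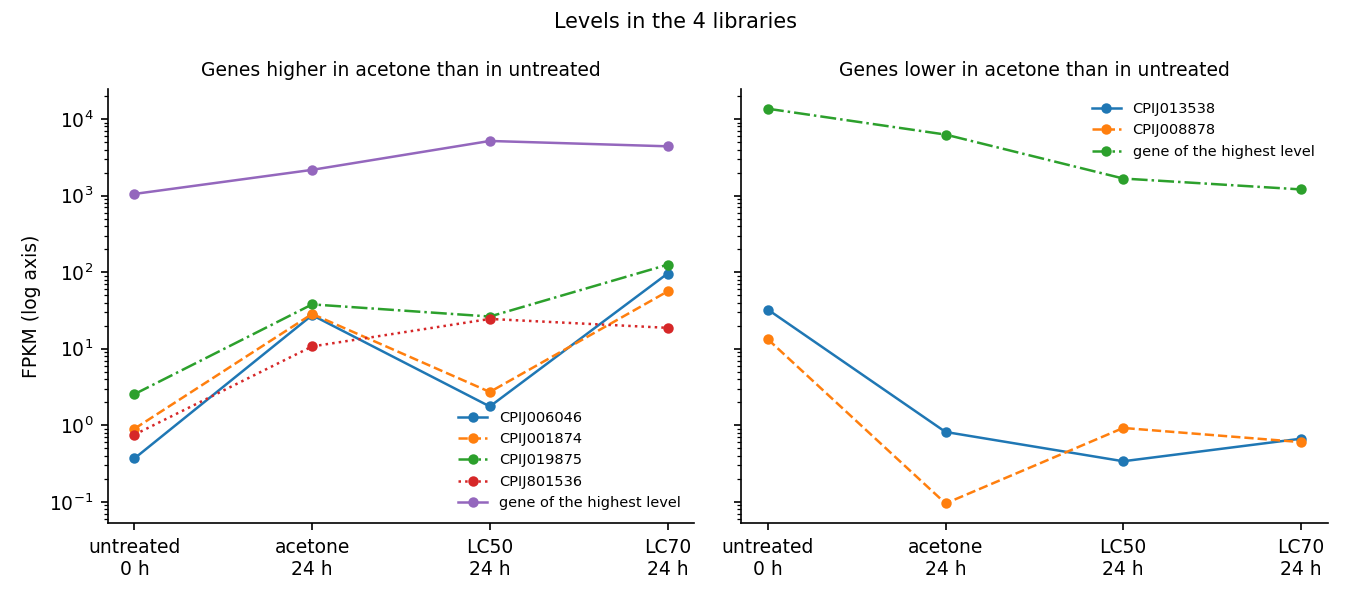
FPKM (log axis) of the named genes and of the gene with the highest level in each direction, in the 4 libraries, with 1 library per point; lines only join the points of a gene. On the left, CPIJ006046 and CPIJ001874 drop at the LC50 (1.76 and 2.72 FPKM) between high values in acetone and at the LC70; on the right, the named genes are below 1 FPKM in all libraries of 24 h.

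The next comparison asked which of the differences recurred in the permethrin libraries, which share the 24 h with acetone and were set against the same untreated library. That library is common to all 3 ratios, so an unusual untreated value alone would make a difference recur, and the counts carry no test. Permethrin is commonly dosed in acetone, so time and solvent cannot be told apart by recurrence either. Against untreated, 508 genes (6.32%) were higher by 2-fold or more under the LC50, and 553 (6.87%) under the LC70. Lower were 329 genes (4.09%) at the LC50 and 344 (4.28%) at the LC70. At both doses together, 414 genes (5.15%) were higher and 289 (3.59%) lower.

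Of the 182 genes higher in acetone, 129 (70.9%) were also at least 2-fold higher at both doses. They made up 31.2% of the 414 genes higher at both doses. Another 7 were past 2-fold at the LC50 alone and 19 at the LC70 alone, and 27 at neither dose. Of those 27, 23 (85.2%) were above untreated at both doses. Most kept genes were above untreated at each dose, with 28.7% below it under the LC50 and 27.0% under the LC70. Within 1.5-fold of untreated at both doses were 4 of the 27.

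Of the 332 genes lower in acetone, 147 (44.3%) were also at least 2-fold lower at both doses, and they made up 50.9% of the 289 genes lower at both. Another 19 were past 2-fold at the LC50 alone, 21 at the LC70 alone and 145 at neither dose. Of those 145, 104 (71.7%) were below untreated at both doses by less than 2-fold. Of all kept genes, 28.7% were below untreated under the LC50 and 27.0% under the LC70. The contrast between the directions depended on the scaling. With median-ratio scaling, 126 of 212 higher genes (59.4%) and 178 of 305 lower genes (58.4%) recurred at both doses. After rescaling without the 50 highest genes it was 212 of 355 (59.7%) and 98 of 166 (59.0%). As deposited, the median kept gene had a log2 ratio to untreated of 0.21 under the LC50 and 0.24 under the LC70, against -0.10 after acetone.

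**Figure D4:**
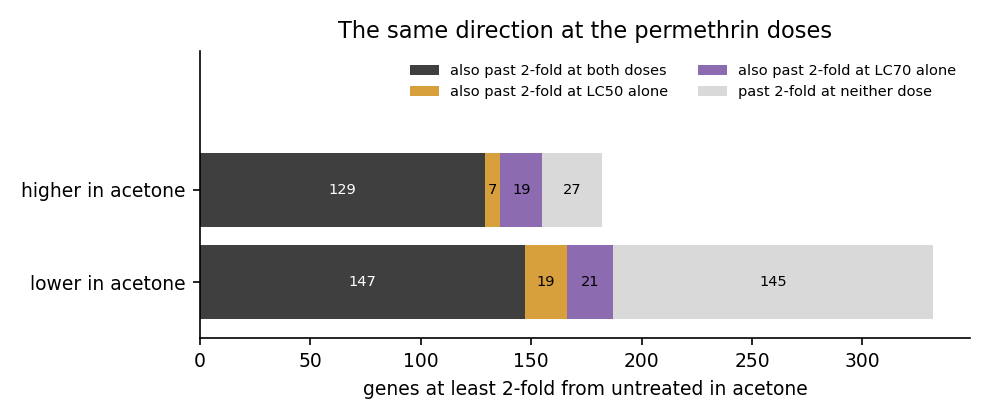
Genes at least 2-fold higher (top bar) or lower (bottom bar) in acetone than in untreated larvae, split by whether they were also past 2-fold in the same direction against untreated at both permethrin doses, at 1 dose or at neither. The segments are 129, 7, 19 and 27 genes in the top bar and 147, 19, 21 and 145 in the bottom bar; with median-ratio scaling the shares recurring at both doses were 59.4% and 58.4%.

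The share of genes that recurred at both doses was larger at higher levels in both directions. Of the lower genes at 1000 FPKM or more in untreated larvae, 17 of 20 were also lower at both doses. From 100 to 1000 FPKM it was 47 of 83, from 20 to 100 FPKM 52 of 130, and from 5 to 20 FPKM 31 of 99. The share was largest among the genes most abundant at 0 h, a library that enters all 3 ratios. Of the higher genes, by their level in acetone, it was 60 of 91 from 5 to 20 FPKM, 43 of 59 from 20 to 100 FPKM, 24 of 30 from 100 to 1000 FPKM, and 2 of 2 above that. By size of the difference, of the 49 genes lower in acetone by 4-fold or more, 39 recurred at both doses, 22 of them at 4-fold or more, against 30 of 51 between 3-fold and 4-fold and 78 of 232 between 2-fold and 3-fold. For the higher genes the order by size was not even, with 15 of 20 at 4-fold or more, 28 of 29 between 3-fold and 4-fold, and 86 of 133 between 2-fold and 3-fold.

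Side by side, the 182 higher genes had median log2 ratios to untreated of 1.301 after acetone, 1.55 under the LC50 and 1.77 under the LC70. The 332 lower genes had a median of -1.300 after acetone and -1.02 under the LC70, and 166 of them were past 2-fold under the LC50. Among all kept genes the medians were -0.10, 0.21 and 0.24. The 147 lower genes that recurred had medians of 72.0 FPKM at 0 h, 19.8 after acetone, 16.4 under the LC50 and 17.4 under the LC70. For this set the acetone median was near the permethrin medians. Of the 147, 67 were lower at both doses than in acetone and 48 higher at both. The 129 higher genes that recurred had medians of 7.23 FPKM at 0 h, 24.9 after acetone, 27.9 under the LC50 and 38.3 under the LC70, and 90 of them were higher at both doses than in acetone and 8 lower at both. As deposited, all kept genes also had a higher median under the LC50 (17.1 FPKM) and the LC70 (17.7 FPKM) than after acetone (13.4 FPKM). How these counts depend on the scaling was not tested.

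**Figure D5:**
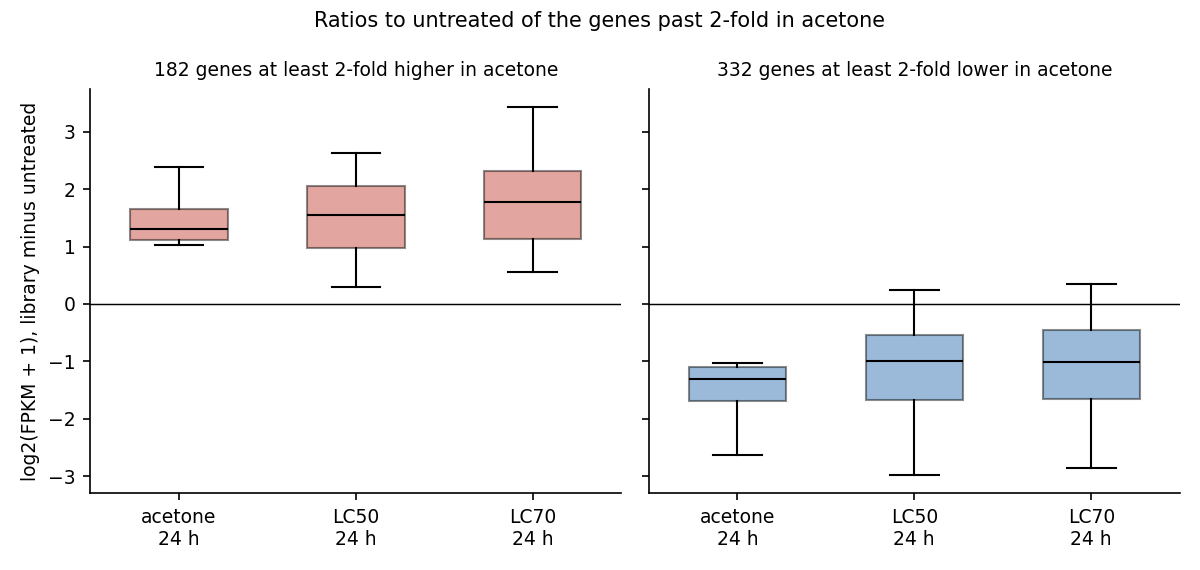
Difference of log2(FPKM + 1) from untreated larvae in the acetone, LC50 and LC70 libraries for the 182 genes higher (left) and the 332 genes lower (right) in acetone; boxes are quartiles over genes, the line is the median and whiskers reach the 5th and 95th percentile. By selection no acetone ratio lies within 2-fold, and the permethrin medians lie at 1.55 (LC50) and 1.77 (LC70) on the left and near the 2-fold mark on the right, at -1.02 for the LC70.

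Some differences were seen in acetone with both doses within 1.5-fold of untreated. There were 67 such lower genes, 20.2% of the 332. Of all kept genes, 77.1% were within 1.5-fold of untreated under the LC50 and 74.5% under the LC70. The 67 genes had medians of 24.8 FPKM at 0 h, 10.97 after acetone, 23.6 under the LC50 and 24.9 under the LC70. That acetone alone was low follows from how these genes were chosen. None of them reached 1000 FPKM in any library. The most abundant stood at 316 FPKM at 0 h, 151 after acetone, 272 under the LC50 and 319 under the LC70, with a log2 ratio of acetone to untreated of -0.75 after rescaling without the 50 highest genes, under 2-fold. The count depended on the scaling, at 29 genes with median-ratio scaling and 11 after rescaling without the 50 highest genes.

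In the higher direction 4 genes were of this kind, named here because they are so few and after their values were seen. CPIJ015255 stood at 5.86 FPKM at 0 h, 12.8 after acetone, 7.27 under the LC50 and 6.004 under the LC70. CPIJ002131 stood at 3.26, 7.81, 4.22 and 4.03 FPKM in the same order, and CPIJ016967 at 1.90, 6.42, 2.57 and 3.14 FPKM. CPIJ004854 stood at 1.49 FPKM at 0 h, 6.24 after acetone, 2.48 under the LC50 and 0.705 under the LC70. All 4 were at low levels, and highest in acetone by the way they were chosen. With a pseudocount of 5 the log2 ratio of acetone to untreated was under 2-fold for all 4, at 0.63 for CPIJ002131, 0.79 for CPIJ004854, 0.72 for CPIJ015255 and 0.73 for CPIJ016967. With median-ratio scaling there were 18 such genes.

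The LC70 and LC50 libraries, of equal time and both under permethrin, gave a measure of how far pools can differ over the same genes, with any effect of dose included and with no library in common with the comparison of acetone and untreated. In it 58 genes (0.721%) were higher under the LC70 by 2-fold or more, and 11 (0.137%) were lower. The quartiles of the log2 ratio were -0.13 and 0.15 and its SD across genes 0.30. Within 1.5-fold were 96.0% of the genes, against 80.2% for acetone and untreated. More genes were past 2-fold between acetone and untreated (514) than between the permethrin pools (69). With median-ratio scaling there were 73 between the permethrin pools. The limit of 5 FPKM in acetone or untreated larvae tilts these counts, because it admits genes high in only 1 of those 2 libraries. With the limit set on the LC50 or LC70 library instead, 188 genes were higher and 291 lower in acetone. Between the permethrin pools 97 were then past 2-fold.

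The genes higher in acetone were also unevenly placed between the permethrin pools. Of the 182, 26 (14.3%) were higher under the LC70 than under the LC50 by 2-fold or more and 1 was lower, against 0.721% and 0.137% of all kept genes. Of the 332 lower genes, 4 were higher and 2 lower. In classes of level by the mean of the permethrin libraries, from 0.418% to 1.65% of kept genes between 5 and 1000 FPKM were higher at the LC70 by 2-fold. Of the 20 genes higher in acetone by 4-fold or more, 12 were higher under the LC70 than under the LC50 by 2-fold or more. These 12 had medians of 2.11 FPKM at 0 h, 31.1 after acetone, 6.45 under the LC50 and 87.9 under the LC70, and in 12 of 12 acetone lay between the LC50 and the LC70. CPIJ006046, CPIJ001874 and CPIJ019875 belonged to them.

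Genes past 2-fold in the same direction had consecutive identifier numbers more often than all kept genes. The table gives no positions, and whether consecutive numbers are neighbours in the genome was not tested. Of the 364 kept genes with a number next to that of a lower gene, counted once for each lower gene, 72 (19.8%) were lower too, against 4.13% of all kept genes, and 11 (3.02%) were higher. Of the 185 next to a higher gene, 26 (14.1%) were higher too, against 2.26% of all, and 11 (5.95%) were lower. Like neighbours were above the background in both directions. Neighbours of the opposite direction were above theirs by less. Next to lower genes 3.02% were higher, against 2.26% of all, and next to higher genes 5.95% were lower, against 4.13%. Of the 68 lower genes with a lower neighbour, 45 (66.2%) recurred at both doses, and of the 24 higher genes with a higher neighbour, 19 (79.2%) did. Copies of similar sequence can share reads, and how the authors' counting divided such reads is not given in the sources used here.

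The longest run of higher genes was the 4 numbers from CPIJ009098 to CPIJ009101. CPIJ009098 stood at 209 FPKM at 0 h, 544 after acetone, 476 under the LC50 and 995 under the LC70. CPIJ009101 stood at 38.3 FPKM at 0 h, 80.3 after acetone, 188 under the LC50 and 179 under the LC70. All 4 were higher in each library of 24 h than in untreated larvae, but the first 2 were higher under the LC70 than under the LC50 by 2-fold or more and the last 2 were not.

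The longest runs of lower genes held 3 numbers each, and there were 4 of them. From CPIJ015122 to CPIJ015124 the genes were abundant. CPIJ015122 stood at 2729 FPKM at 0 h, 901 after acetone, 651 under the LC50 and 767 under the LC70, and CPIJ015124 at 1411, 519, 617 and 508 FPKM. The libraries of 24 h were alike and all were under the untreated level in this run. From CPIJ801711 to CPIJ801713 the pattern was the same, with CPIJ801711 at 427 FPKM at 0 h, 58.1 after acetone, 73.6 under the LC50 and 90.02 under the LC70. CPIJ801713 stood at 22.5, 2.40, 1.78 and 2.51 FPKM.

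The run from CPIJ008876 to CPIJ008878 was not uniform. CPIJ008876 was lower at the LC50 (40.5 FPKM) and LC70 (37.0 FPKM) than in acetone (191 FPKM), and stood at 439 FPKM untreated, while CPIJ008878 was lowest in acetone. The run from CPIJ801979 to CPIJ801981 was at low levels. CPIJ801979 stood at 6.47 FPKM at 0 h, 0.194 after acetone, 1.496 under the LC50 and 1.295 under the LC70, and CPIJ801981 at 15.7, 6.87, 6.26 and 9.76 FPKM. CPIJ801981 was within 2-fold of untreated at the LC70, and the middle gene of this run was near the untreated level at both doses. After rescaling without the 50 highest genes, the log2 ratio of acetone to untreated was under 2-fold for 3 genes of these runs, at -0.89 for CPIJ008876, -0.91 for CPIJ801980 and -0.81 for CPIJ801981. With a pseudocount of 5 it was under 2-fold for 4, at 0.73 for CPIJ009100, 0.98 for CPIJ009101, -0.59 for CPIJ801980 and -0.80 for CPIJ801981.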

How the data were processed

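RNA from pools of 200 whole larvae was sequenced as paired ends, per the labels' protocols. The deposited table holds 1 FPKM value per gene and library for 13345 genes. Its header names no unit; FPKM was inferred from the Cufflinks and Cuffdiff steps of the design text and from the values. CASAVA 1.8, Trimmomatic and TopHat are also named in the submitters' processing notes; for settings, genome build, annotation and any scaling between libraries the entry is: not given in the sources used here. The smallest maximum over libraries was 1.00 FPKM, so genes low in all libraries are not in the table.

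Columns were assigned to samples by treatment and time. Ratios were differences of log2(FPKM + 1), called at 2-fold (4-fold where stated), with no test. A gene counted as seen in acetone only when both doses were within 1.5-fold of untreated. Genes listed at 0 in any library were left out, as was the identifier range from 20000 up to 40000. Named genes, at 10 FPKM or more in acetone or untreated, were the 2 with the largest ratio and the 2 with the largest smallest ratio over the libraries of 24 h in each direction. Added to these were the ends of the longest runs of consecutive numbers past 2-fold and any set of 5 genes or fewer. The genes, lists and limits were chosen with earlier results of these data known. Gene lists by function were not used, because 0 identifiers matched the 18458 rows of the reference table (RefSeq, VPISU_Cqui_1.0_pri_paternal). Alternatives were pseudocounts of 0.1 and 5, other level filters, a 4-fold threshold, 2 scalings, and inclusion of the genes left out. Depth is unknown, so no counting interval is given. The counting was tested on simulated data. Python 3.11.15, numpy 2.4.6, pandas 2.3.3 and matplotlib 3.10.9 were used.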

Additional observations from a re-analysis of the deposited data

Results flagged for a closer look

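Genes that reached 5 FPKM but were left out of the comparison were past 2-fold more often than those in it, in part by construction. A gene at 5 FPKM or more in 1 of the compared libraries and at 0 in the other always passes 2-fold. At 5 FPKM or more in acetone or untreated larvae, 139 genes had been left out, 127 for their identifier number and 12 for a value of 0 in some library. Of the 139, 63 (45.3%) were past 2-fold between acetone and untreated, 22 higher and 41 lower, against 6.39% of the kept genes, and 49 of the 63 were listed at 0 in 1 of those libraries.

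Some genes differed from untreated in opposite directions in acetone and at a permethrin dose; with 1 library per group this was not tested. There was 1 gene at least 2-fold higher in acetone and at least 2-fold lower at a dose, CPIJ008211, named after its values were seen. It stood at 4.60 FPKM at 0 h, 13.2 after acetone, 1.63 under the LC50 and 25.2 under the LC70, and with a pseudocount of 5 its log2 ratio of acetone to untreated was 0.92, under 2-fold. In the converse direction there were 6 genes. Their medians were 16.8 FPKM at 0 h, 5.05 after acetone, 82.8 under the LC50 and 78.9 under the LC70. These medians mix genes of unlike level, from 8.64 to 826 FPKM at 0 h, and do not give the change of a single gene. Taken gene by gene, the log2 ratio to untreated had a median of 1.10 for the LC50 and 1.13 for the LC70. All 6 genes passed 2-fold under the LC70, but only 3 did so under the LC50. The most abundant of the 6 stood at 826 FPKM at 0 h, 357 after acetone, 1558 under the LC50 and 1785 under the LC70. Its log2 ratio of acetone to untreated was -0.90 after rescaling without the 50 highest genes, under 2-fold.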

How the results depend on the processing

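Values that moved by over 1.5 times are given here; the cause was not tested, except that a 4-fold threshold or a higher pseudocount admits fewer genes by construction. At 4-fold, 20 genes were higher and 49 lower in acetone, 7 and 22 of them at both doses, and 0 and 1 in acetone only, with 191 genes for the LC50 against untreated, 199 for the LC70 against untreated and 15 for the LC70 against the LC50. A pseudocount of 5 gave 84 higher and 200 lower genes, 59 higher at both doses, 2 higher and 21 lower in acetone only, and 44 for the LC70 against the LC50. The count of genes higher in acetone only was 2 with a pseudocount of 0.1, 1 with a filter at 10 FPKM, 1 with a filter at 5 FPKM in the LC50 or LC70 library, and 12 with the genes at 0 and the identifier range included. A filter at 1 FPKM gave 133 genes for the LC70 against the LC50 and a median log2 ratio of acetone to untreated of -0.044, and no filter gave 141 and -0.036. Median-ratio scaling gave a median of -0.057, with 18 higher and 29 lower genes in acetone only. Rescaling without the 50 highest genes reversed the median to 0.21 and gave 355 higher and 166 lower genes, 212 higher at both doses, 14 higher and 11 lower in acetone only, and 107 for the LC70 against the LC50. Of 99 alternative counts and medians, 66 were within 1.5 times of the reported value. For the 30 genes described singly or in runs, 105 of 118 alternative ratios of acetone to untreated were within 1.5 times, the other 13 came from other pseudocounts, and 0 reversed. No paired analysis was possible because no group has a second library, and no replicate could be left out.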

Other observations

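The share of genes past 2-fold was also read by identifier class. Among the 643 kept genes with a number of 800000 or more, 2.33% were higher and 5.60% lower in acetone, and among the 7401 with a number under 20000 it was 2.26% and 3.999%. Among the 100 kept genes with the highest mean in the permethrin libraries, 77 had a lower value in acetone than in untreated larvae, against 60.8% of all kept genes. Their median log2 ratio was -0.06, against -0.10 for all kept genes. At least 2-fold higher were 2 of them and lower 3, against 2.26% and 4.13% of all. These values are as deposited, and rescaling without the 50 highest genes reversed the median of all kept genes to 0.21. These 100 genes made up 40.8% of the FPKM sum at 0 h, 43.8% after acetone, 40.02% under the LC50 and 39.3% under the LC70.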
